A study of Mus musculus with 24 samples.

Results

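Transcripts of 40 genes of the cell cycle machinery were followed in 24 bulk RNA sequencing libraries of sorted mouse tissue macrophages. The members were chosen by gene symbol, 16 for S phase and 24 for mitosis, and each of the 40 had a single row among the 55487 genes of the count table. The S phase genes were the helicase subunits Mcm2 to Mcm7, Cdc45 and Gins2, the loading factors Cdc6 and Cdt1, the sliding clamp Pcna, the nucleotide enzymes Rrm1, Rrm2 and Tyms, and the cyclins Ccne1 and Ccne2. The mitosis genes held the cyclins and kinases Ccna2, Ccnb1, Ccnb2, Cdk1, Plk1, Aurka, Aurkb, Bub1, Bub1b and Ttk, and the motors and spindle or kinetochore proteins Kif11, Kif20a, Kif23, Tpx2, Prc1, Nusap1, Cenpe and Cenpf. They also held the anaphase genes Cdc20 and Ube2c, the passenger complex subunit Birc5, topoisomerase Top2a, the chromosome surface protein Mki67 and the transcription factor Foxm1. Libraries came from Kupffer cells of the liver, splenic macrophages, alveolar macrophages of the lung and microglia of the brain. Each cell type was taken from mice of the genotype labelled Z165KO (KO below) and from wildtype mice (WT), with 3 libraries in each of the 8 groups. RNA came from 100000 sorted cells per library. The labels do not describe the Z165KO allele, the sorting gate, or the age, sex or strain of the mice. Whether the 3 libraries of a group are from 3 mice is not stated either, and the p-values therefore speak only of the scatter between these libraries, part of which may be technical. In bulk RNA, fewer dividing cells and less transcript per dividing cell cannot be told apart.

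Cell cycle genes are switched on in waves. E2F factors, released from the RB protein when G1 cyclin kinases phosphorylate it, switch on the S phase genes, whose products load the MCM helicase on replication origins, supply nucleotides and copy DNA. Genes of mitosis follow later: a MuvB complex, as part of the repressive DREAM complex in resting cells and with B-MYB and FOXM1 in cycling cells, acts on them at the cell cycle genes homology region (CHR), often next to CCAAT boxes bound by NF-Y. Tissue-resident macrophages are known to renew themselves in place by a low rate of division, so these transcripts are usually read as a sign of cycling cells in a macrophage population.

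In each phase, the 2 genes with the smallest unadjusted p-values between WT cell types were chosen, among members with a promoter in the table. Their promoters are shown to set the 2 phases side by side. Each is a RefSeq sequence (GRCm38.p6) of 300 bases, from 250 before to 50 after the gene start, read 5′ to 3′ on the strand of the gene. Mcm6 (chr1:128359656-128359955, minus strand) and Rrm2 (chr12:24708004-24708303, plus strand) are the S phase genes. Bub1b (chr2:118597961-118598260, plus strand) and Prc1 (chr7:80294201-80294500, plus strand) are the mitosis genes. Capitals mark matches to CCAAT, to the CHR core (TTTGAA or TTTAAA) and to an E2F core, each searched on both strands. The E2F core was spelled TTCCCGC, as a first form, TTGGCGC, as a second form, or TTCGCGC, as a last form.
Mcm6: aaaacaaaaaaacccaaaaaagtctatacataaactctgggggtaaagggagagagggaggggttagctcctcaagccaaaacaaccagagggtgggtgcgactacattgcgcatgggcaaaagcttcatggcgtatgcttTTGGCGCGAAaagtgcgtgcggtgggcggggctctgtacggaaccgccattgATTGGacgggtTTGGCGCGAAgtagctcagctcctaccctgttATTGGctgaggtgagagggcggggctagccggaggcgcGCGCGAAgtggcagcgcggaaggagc
Rrm2: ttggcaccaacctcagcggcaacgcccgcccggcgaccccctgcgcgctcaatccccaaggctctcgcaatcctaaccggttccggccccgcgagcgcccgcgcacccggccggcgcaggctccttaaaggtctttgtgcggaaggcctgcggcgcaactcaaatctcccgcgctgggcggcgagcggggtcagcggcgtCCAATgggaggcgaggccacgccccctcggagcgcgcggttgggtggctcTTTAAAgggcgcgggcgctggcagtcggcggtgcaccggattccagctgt
Bub1b: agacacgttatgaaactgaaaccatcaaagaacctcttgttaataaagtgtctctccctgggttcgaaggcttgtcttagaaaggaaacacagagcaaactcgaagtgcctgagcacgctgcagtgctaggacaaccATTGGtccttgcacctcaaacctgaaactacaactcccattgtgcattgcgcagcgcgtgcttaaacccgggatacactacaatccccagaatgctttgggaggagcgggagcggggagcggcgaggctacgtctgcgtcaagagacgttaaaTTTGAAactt
Prc1: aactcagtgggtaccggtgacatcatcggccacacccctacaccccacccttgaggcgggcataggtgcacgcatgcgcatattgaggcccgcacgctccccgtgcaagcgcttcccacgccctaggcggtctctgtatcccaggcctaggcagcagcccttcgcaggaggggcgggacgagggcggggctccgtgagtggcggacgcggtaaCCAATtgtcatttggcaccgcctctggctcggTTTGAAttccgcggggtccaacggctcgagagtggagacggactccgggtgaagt
Mcm6 held 5 E2F matches, of which 4 formed 2 overlapping pairs, and 2 inverted CCAAT boxes, but no CHR core. In Rrm2 a CCAAT box began 50 bases before the start and a CHR core at base 1, with no E2F match. Bub1b carried an inverted CCAAT box 113 bases before its start and a CHR core at base 41 after it, so the elements were not neighbours. Prc1 held a CCAAT box 37 bases and a CHR core 5 bases before its start. Rrm2 thus had the elements of the 2 mitosis promoters, a CCAAT box and a CHR core without an E2F match.

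The same search was run in all 32851 promoters of the RefSeq table, where 32 of the 40 members had 34 promoters. Mcm7 and Prc1 each had a further promoter, and promoters, not genes, were counted. The promoters of Prc1 overlap, so the same CCAAT and CHR letters were counted again. Aurkb, Ccna2, Ccne2, Foxm1, Gins2, Kif20a, Mcm4 and Tpx2 were not matched. CCAAT and the CHR core stood together in 17 of 20 mitosis promoters (85.0%), in 4 of 14 S phase promoters (28.6%) and in 10.7% of all promoters. An E2F core stood in 3 of 20 mitosis promoters (15.0%), in 8 of 14 S phase promoters (57.1%) and in 8.07% of all. CCAAT, with or without the others, was counted in 90.0%, 71.4% and 37.4% of mitosis, S phase and all promoters, and the CHR core in 90.0%, 35.7% and 27.6%. A TATAAA element, the site of the TATA-binding protein TBP, was counted in 0.0%, 7.14% and 13.6%. In the member promoters 3 of 23 E2F matches overlapped a CCAAT match. A match is a run of letters and not a bound site, and a missing match says only that these letters are not in the 300 bases.

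**Figure D1:**
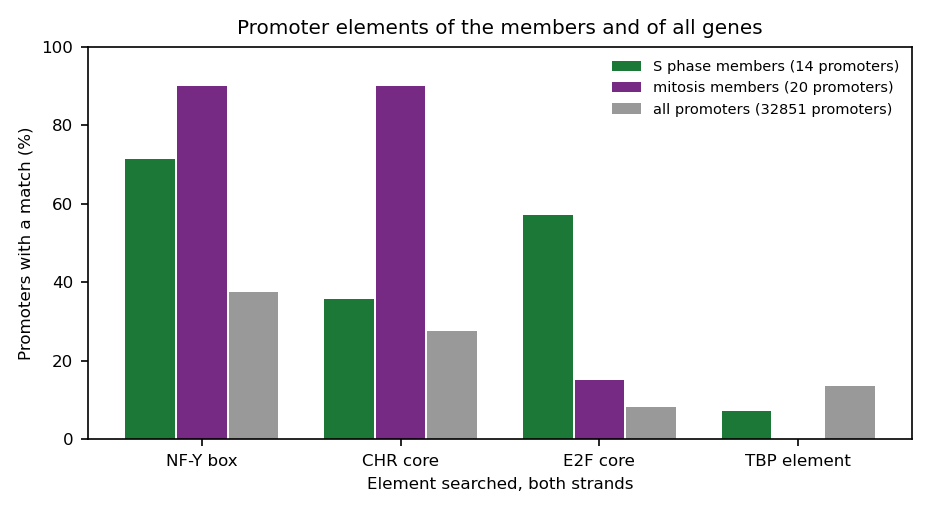
Share of promoters (%, vertical axis) with a match to each element on either strand, for the 14 promoters of S phase members, the 20 promoters of mitosis members and all 32851 promoters of the table. The NF-Y box (CCAAT) and the CHR core reach 90.0% in mitosis promoters, while the E2F core is most frequent in S phase promoters at 57.1%.

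Library depth was 50449347 to 65981787 counts, with 57733667 to 65981787 in Kupffer cells and 51613880 to 63234480 in splenic macrophages. Marker sums followed the labels: Kupffer cell markers summed to 15757 to 21266 CPM (counts scaled to library size) in KO and 16795 to 19498 CPM in WT Kupffer libraries, and red pulp macrophage markers to 27755 to 28418 CPM in KO and 25703 to 30301 CPM in WT splenic libraries. Alveolar macrophage markers summed to 26258 to 32233 CPM in KO and 21661 to 26997 CPM in WT alveolar libraries, and microglia markers to 31777 to 32130 CPM in KO and 31365 to 34310 CPM in WT microglia. Zeb2, which the series title names, averaged 136 ± 8.70 CPM in KO and 256 ± 57.7 CPM in WT alveolar macrophages (SD, n = 3; log2 fold change −0.89, edgeR adjusted p = 0.116), and in the other cell types its groups overlapped. Counts over the whole gene do not check an allele that the labels do not describe.

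The 24 libraries covered a wide range of cell cycle transcript. Summed over the 24 mitosis genes, KO and WT microglia held 20.2 to 28.5 CPM and 19.8 to 29.6 CPM, while KO and WT alveolar macrophages held 747.6 to 1133 CPM and 732.4 to 1017 CPM. Kupffer cells lay between them at 414.2 to 541.2 CPM in KO and 291.6 to 368.5 CPM in WT, and splenic macrophages spanned 650.5 to 1375 CPM in KO and 282.2 to 567.8 CPM in WT. Per length, in the authors' length-scaled transcript values (TPM), S phase genes summed to 9.35 to 13.9 times the mitosis genes in KO microglia and to 10.05 to 16.4 times in WT microglia. The same TPM ratio was 1.59 to 2.18 in KO and 2.16 to 2.46 in WT Kupffer libraries, 1.26 to 1.45 in KO and 1.32 to 2.49 in WT splenic libraries, and 1.25 to 1.46 in KO and 1.38 to 1.52 in WT alveolar libraries. In microglia the S phase sum was 246.8 to 279.0 CPM in KO and 242.8 to 270.3 CPM in WT. By sum, mitotic transcripts were thus scarcer than those of S phase by far. Much of the S phase sum came from Pcna and Mcm3, at 71.5 and 56.6 of a mean of 215.5 TPM in WT microglia. Other S phase genes were as scarce as mitosis genes there, such as Rrm2, Cdc6 and Ccne1 at 0.399, 0.201 and 0.184 TPM.

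**Figure D2:**
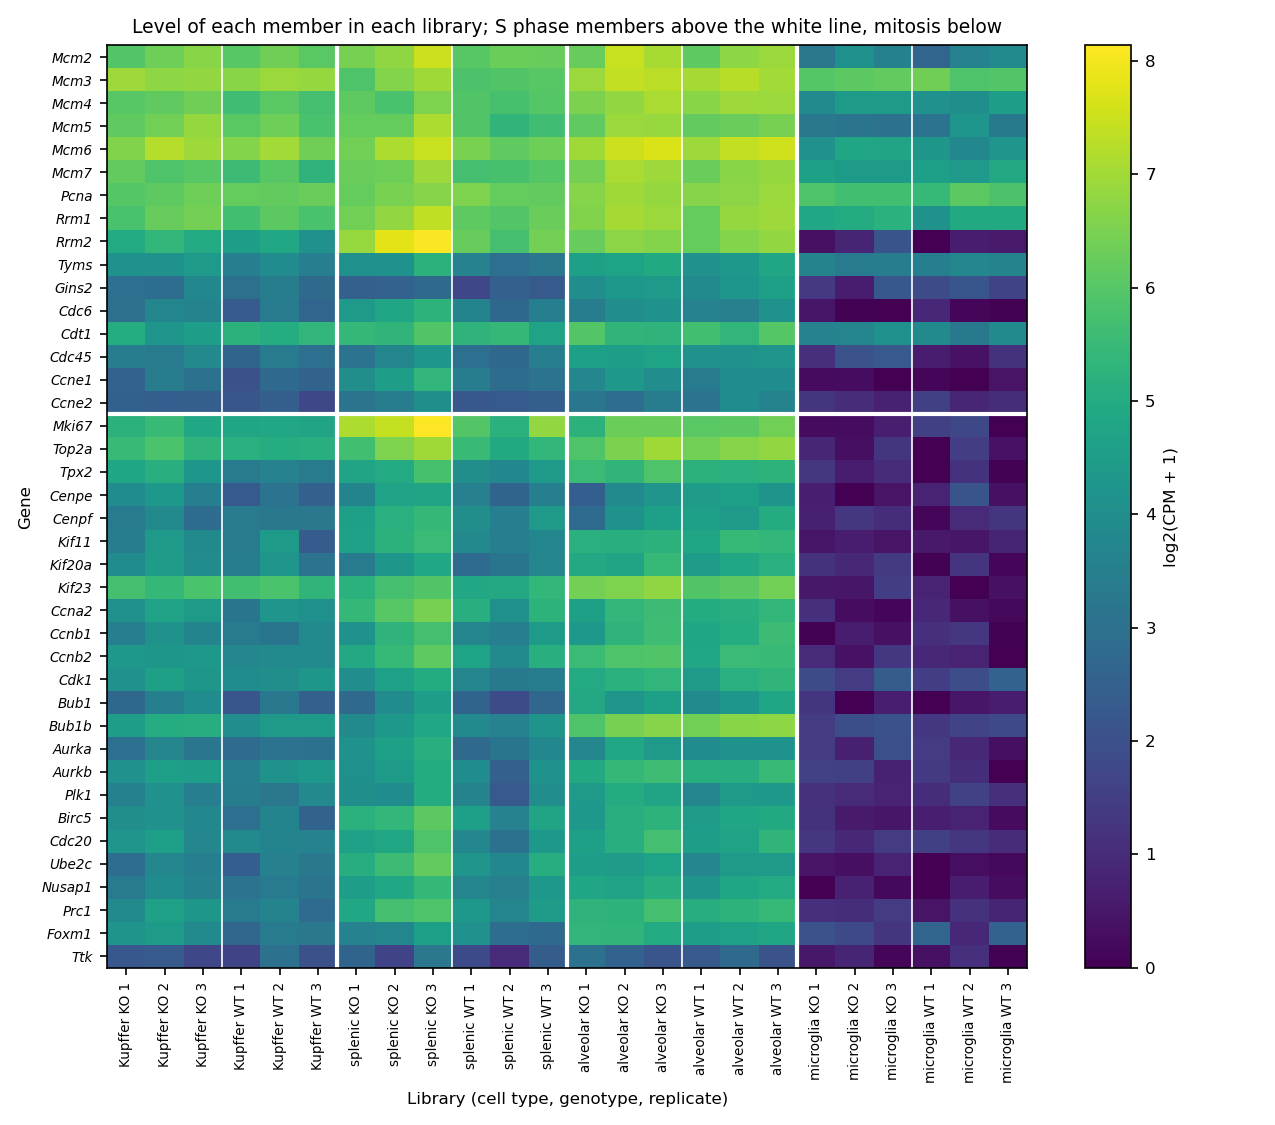
Level of each of the 40 genes (rows) in each of the 24 libraries (columns) as log2(CPM + 1), with S phase genes above and mitosis genes below the white line and KO columns left of WT columns in each cell type. Microglial columns are dark below the line, and splenic KO replicate 3 is the brightest of the 6 splenic columns.

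The first comparison set KO against WT Kupffer cells, the macrophages of the liver sinusoids. Mitotic genes tended to be higher in KO, led by the spindle assembly factor Tpx2, the kinetochore motor Cenpe and the transcription factor Foxm1, which all stood above 2-fold, but no member passed the test over all genes. S phase genes had a lower median fold change, and the clamp Pcna did not differ beyond its spread. The 24 mitosis genes summed to 414.2, 541.2 and 424.0 CPM in KO libraries, against 291.6, 368.5 and 309.4 CPM in WT libraries. All 3 KO sums lay above all 3 WT sums, with means of 460 ± 70.7 and 323 ± 40.3 CPM (SD, n = 3 each). S phase genes summed to 712.5, 810.4 and 882.8 CPM in KO, against 637.5, 790.0 and 628.3 CPM in WT. These sums overlapped, at 802 ± 85.5 and 685 ± 90.8 CPM.

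By edgeR's quasi-likelihood test on 19085 genes, 12 genes were called at an adjusted p under 0.05 (0.0629%), and 0 of the 40 members were among them. At an unadjusted p under 0.05 there were 2 S phase and 10 mitosis genes, 12 of 40 against 6.94% of all genes tested, and the smallest adjusted p of a member was 0.114. Fitted log2 fold changes were above 0 for 14 of 16 S phase and 23 of 24 mitosis genes, with medians of 0.39 and 0.48 and a range from −0.55 (Cdt1) to 1.44 (Cenpe). Over all genes tested the median was −0.003 and 49.7% lay above 0. The 3 KO libraries lay above the 3 WT libraries without overlap for Rrm2 and Tyms and for 9 mitosis genes (Mki67, Top2a, Tpx2, Cenpe, Ccnb2, Bub1b, Birc5, Prc1 and Foxm1), which is 11 of 40 against 5.87% of all genes tested. No member lay below WT without overlap, where 7.04% of all genes did. DESeq2 called 413 genes (2.16%), 130 of them higher in KO (0.681%), and among these the mitosis genes Tpx2, Foxm1, Cenpe, Ccnb2 and Prc1.

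Among the mitotic genes, Tpx2 (chromosome 2, 152847964 to 152895321), which activates Aurora A on spindle microtubules, read 26.96, 33.5 and 18.2 CPM in KO libraries, against 9.16, 11.3 and 9.34 CPM in WT libraries. The lowest KO library held more than the highest WT library. Its mean was 2.64-fold higher in KO (26.2 ± 7.71 and 9.93 ± 1.18 CPM; log2 1.40 ± 0.23, SE; edgeR adjusted p = 0.114, DESeq2 adjusted p = 8.4e-06). Foxm1, the forkhead factor that drives the late wave, read 17.6, 20.6 and 13.8 CPM in KO and 5.44, 9.45 and 8.42 CPM in WT, again without overlap (log2 1.16 ± 0.26, SE; edgeR adjusted p = 0.238, DESeq2 adjusted p = 0.00455). Cenpe, named here because DESeq2 called it, read 14.2, 19.2 and 10.5 CPM in KO and 3.90, 7.56 and 4.69 CPM in WT (log2 1.44 ± 0.33, SE; edgeR adjusted p = 0.245).

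The proliferation markers in routine use moved less in Kupffer cells. Mki67 read 36.9, 44.8 and 28.5 CPM in KO and 27.3, 28.0 and 26.2 CPM in WT (log2 0.44 ± 0.16, SE; edgeR adjusted p = 0.65). Top2a, which untangles sister chromatids, read 43.2, 55.9 and 38.2 CPM in KO and 34.8, 31.9 and 33.5 CPM in WT (log2 0.46 ± 0.14, SE; edgeR adjusted p = 0.545). For both genes the groups did not overlap, while the lowest KO library was close to the WT libraries. Kif23, a motor of the central spindle, overlapped fully, with 52.3, 41.3 and 55.4 CPM in KO and 49.7, 55.5 and 38.8 CPM in WT. The cyclin Ccnb2, the central spindle protein Prc1 and the passenger subunit Birc5 separated the genotypes, chosen here after their values were seen. Ccnb2 read 19.3, 18.6 and 19.1 CPM in KO and 12.6, 13.4 and 13.7 CPM in WT, the tightest groups among them. Prc1 read 13.4, 23.97 and 18.6 CPM in KO and 9.37, 11.3 and 6.18 CPM in WT, and Birc5 15.4, 16.4 and 12.9 CPM in KO and 6.89, 11.6 and 5.06 CPM in WT. Kif11, the gene called in spleen, spread widely in liver, at 9.72, 19.6 and 13.7 CPM in KO and 9.30, 20.6 and 4.20 CPM in WT (log2 0.34 ± 0.55, SE).

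In S phase, the ribonucleotide reductase subunit Rrm2 and thymidylate synthase Tyms separated the Kupffer genotypes, and both supply nucleotides. Rrm2 read 30.4, 41.2 and 30.3 CPM in KO and 22.4, 28.2 and 16.2 CPM in WT (log2 0.62 ± 0.23, SE; edgeR adjusted p = 0.65). Tyms read 17.1, 16.9 and 19.8 CPM in KO and 10.3, 14.2 and 10.1 CPM in WT (log2 0.65 ± 0.22, SE; edgeR adjusted p = 0.589). The helicase subunit Mcm6 overlapped, at 95.5, 149.5 and 122.5 CPM in KO and 97.0, 126.2 and 82.0 CPM in WT. The groups crossed as well for Mcm3, with 122.0, 106.2 and 112.5 CPM in KO and 101.3, 120.3 and 113.2 CPM in WT (log2 0.05), and for Mcm5, with 69.5, 83.5 and 114.5 CPM in KO and 65.0, 80.2 and 54.3 CPM in WT (log2 0.45). Pcna read 62.2, 68.6 and 79.2 CPM in KO and 72.5, 71.7 and 76.4 CPM in WT, with a 95% interval of the log2 fold change from −0.40 to 0.30. Cdt1, the licensing factor that is destroyed once S phase begins, was the lowest of the 16 by fold change, at 31.9, 17.999 and 22.5 CPM in KO and 36.3, 31.7 and 39.8 CPM in WT. Its highest KO library just passed the lowest WT library.

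Which Kupffer library was high differed by phase. KO replicate 2 was the highest of the 6 libraries for 18 of 24 mitosis genes, and KO replicate 3 for 8 of 16 S phase genes. WT replicate 1 was the lowest for 19 of 40. Markers of other cell types were summed in these libraries, and B cell markers moved with genotype. B cell markers summed to 256.7 to 279.6 CPM in KO and 916.7 to 1406 CPM in WT, with 6 of 14 genes lower in KO by edgeR and Pax5 and Ebf1 at 0 in all 3 KO libraries. T and NK cell markers summed to 443.9, 498.4 and 279.8 CPM in KO and 353.7, 307.5 and 217.4 CPM in WT. Endothelial markers summed to 3862, 4779 and 1907 CPM in KO and 5670, 4629 and 5553 CPM in WT. Both sums overlapped, and 0 of 12 and 0 of 8 genes were called. Fold changes were above 0 for 11 of 12 T and NK genes (median log2 0.53) and for 0 of 8 endothelial genes (−0.60). The part of these cells in the Kupffer result was not tested.

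**Figure D3:**
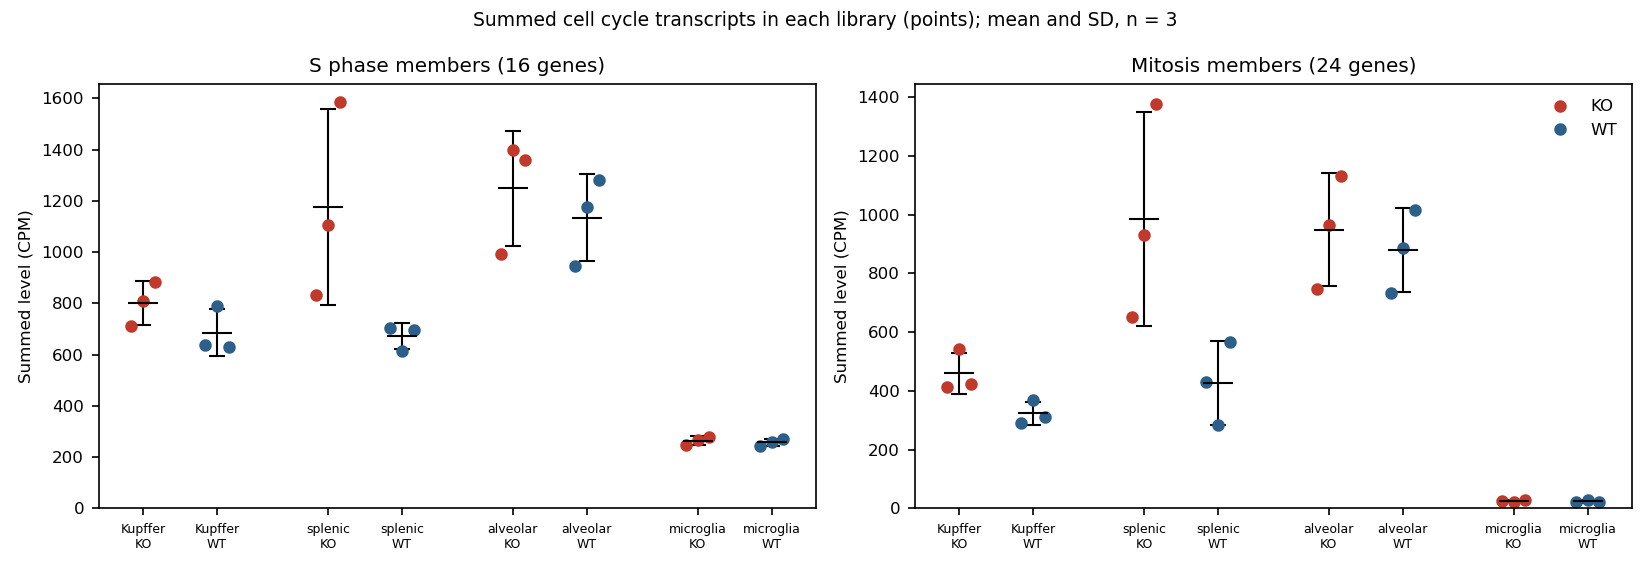
Summed CPM of the 16 S phase genes and of the 24 mitosis genes in each library (points), with mean and SD of 3 libraries, KO left of WT in each cell type and both axes starting at 0. The splenic KO points lie above the splenic WT points in both panels but spread widely, from 650.5 to 1375 CPM for mitosis genes, and the microglial mitosis points lie under 30 CPM.

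In splenic macrophages all 40 members were higher in KO by fitted fold change, and 1, the spindle motor Kif11, rose by the test over all genes. Of the 16 S phase genes, the cyclins Ccne1 and Ccne2, the loading factor Cdc6 and Rrm2 stood 2.74-fold to 3.30-fold above WT without passing, while the other loading factor Cdt1 was at 1.34-fold and Mcm4 at 1.23-fold, both with overlap. Libraries within the KO group differed by about as much as the genotypes did. The mitosis genes summed to 650.5, 930.6 and 1375 CPM in KO libraries, against 430.8, 282.2 and 567.8 CPM in WT libraries. S phase genes summed to 834.1, 1105 and 1587 CPM in KO, against 703.1, 614.2 and 697.4 CPM in WT. Both sums were above WT in all 3 KO libraries, with means of 985 ± 365 and 427 ± 143 CPM for mitosis and 1175 ± 381 and 672 ± 49.8 CPM for S phase (SD, n = 3 each).

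EdgeR called 133 of 17808 genes (0.747%), of which 23 were higher in KO (0.129%), and 1 of 40 members. At an unadjusted p under 0.05 there were 11 S phase and 19 mitosis genes, 30 of 40 against 11.7% of all genes tested. The median log2 fold change was 0.81 for S phase and 1.24 for mitosis genes, over a range from 0.18 (Pcna) to 1.75 (Ccne1), beside −0.003 for all genes tested. KO libraries lay above WT libraries without overlap for 10 S phase and 14 mitosis genes, 24 of 40 against 8.02% of all genes tested, and below WT for 0 of 40 against 11.9%. The S phase genes were Mcm2, Mcm5, Mcm7, Rrm1, Rrm2, Tyms, Gins2, Cdc6, Ccne1 and Ccne2. The mitosis genes were Mki67, Top2a, Tpx2, Cenpe, Cenpf, Kif11, Ccna2, Cdk1, Bub1, Aurka, Birc5, Cdc20, Nusap1 and Prc1. DESeq2 called 903 genes (5.07%), 489 of them higher in KO (2.75%), and 10 S phase and 16 mitosis members. Without the filter on low counts, edgeR called 330 of 33575 genes (0.983%), 109 of them higher in KO (0.325%), and 9 members: Kif11, Rrm2, Cdc6, Ccne1, Ccne2, Prc1, Cdk1, Tpx2 and Aurka.

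Kif11 (chromosome 19, 37376403 to 37421859) encodes the kinesin-5 that pushes spindle poles apart. It read 24.4, 36.9 and 45.5 CPM in KO libraries, against 13.1, 10.3 and 12.3 CPM in WT libraries. Every KO library was well above every WT library, and the WT libraries were close together. The mean was 2.99-fold higher in KO (35.6 ± 10.6 and 11.9 ± 1.44 CPM; log2 1.62 ± 0.24, SE; 95% interval 1.06 to 2.18; edgeR adjusted p = 0.0386). The fold change stayed between 1.44 and 1.83 on the log2 scale in all alternatives, but the call was lost when KO replicate 2 or 3 or any WT replicate was left out (adjusted p from 0.0882 to 0.149), when both libraries numbered 3 were (0.186) and in the fit of all 24 libraries (0.0944), which called Tyms in its place (log2 1.43, adjusted p = 0.0141).

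Among the S phase genes, Ccne1, the cyclin E1 that activates Cdk2, read 15.2, 21.9 and 40.3 CPM in KO and 9.58, 6.34 and 7.55 CPM in WT (log2 1.75 ± 0.35, SE; edgeR adjusted p = 0.0966). Cdc6, which loads the helicase, read 20.0, 26.9 and 37.2 CPM in KO and 11.8, 5.75 and 10.3 CPM in WT (3.02-fold; edgeR adjusted p = 0.0878). Rrm2, whose promoter is shown above, read 116.6, 219.8 and 273.6 CPM in KO and 75.6, 52.7 and 84.7 CPM in WT (log2 1.56 ± 0.32, SE; edgeR adjusted p = 0.0981). In all 3 genes the order of the KO libraries was the same, replicate 3 highest and replicate 1 lowest, and no WT library reached a KO library. Ccne2 and Tyms, chosen after their values were seen, kept the genotypes apart as well. Ccne2 read 7.71, 9.92 and 15.6 CPM in KO and 3.59, 3.95 and 4.57 CPM in WT (edgeR adjusted p = 0.0975), and Tyms 15.97, 16.7 and 36.6 CPM in KO and 11.2, 6.83 and 8.30 CPM in WT (0.169). Per length Rrm2 stood at 231.3 TPM in KO and 81.3 TPM in WT splenic macrophages, where Pcna stood at 114.9 and 105.6 TPM.

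The helicase and the clamp had smaller fold changes than these. Mcm2 read 87.0, 109.6 and 182.4 CPM in KO and 64.2, 77.4 and 74.0 CPM in WT (log2 0.84 ± 0.25, SE; edgeR adjusted p = 0.264). Mcm6 overlapped, at 84.1, 138.2 and 175.9 CPM in KO and 88.8, 70.4 and 80.9 CPM in WT (log2 0.77; edgeR adjusted p = 0.286). Summed over Mcm2 to Mcm7, KO libraries held 447.7, 553.1 and 836.1 CPM and WT libraries 382.1, 353.0 and 393.4 CPM. Pcna, which also serves DNA repair outside S phase, read 72.8, 88.9 and 100.4 CPM in KO and 93.5, 72.5 and 72.3 CPM in WT and overlapped (log2 0.18; 95% interval −0.18 to 0.53).

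In mitosis, Mki67 read 140.8, 168.4 and 280.1 CPM in splenic KO libraries, against 60.6, 35.9 and 112.9 CPM in WT libraries (log2 1.52 ± 0.43, SE; edgeR adjusted p = 0.232). Top2a read 49.5, 93.5 and 126.0 CPM in KO and 44.8, 29.4 and 41.2 CPM in WT (log2 1.26 ± 0.32, SE; edgeR adjusted p = 0.184). Prc1, which bundles the microtubules of the central spindle, read 27.8, 51.9 and 58.0 CPM in KO and 19.0, 12.1 and 20.9 CPM in WT (log2 1.44 ± 0.31, SE; edgeR adjusted p = 0.121). These 3 genes kept the genotypes apart, but for Top2a by a few CPM. Ccna2, the cyclin A2 of S and G2 phase, read 41.5, 63.4 and 88.1 CPM in KO and 33.2, 15.8 and 37.7 CPM in WT. Foxm1, one of the genes with the largest fold changes in Kupffer cells, overlapped here at 11.3, 12.3 and 23.1 CPM in KO and 16.2, 6.65 and 5.92 CPM in WT (edgeR adjusted p = 0.58).

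Single splenic libraries stood apart over the whole set. KO replicate 3 was the highest of the 6 libraries for all 40 members, and KO replicate 1 the lowest of the KO libraries for 35. WT replicate 2 was the lowest of the 6 for 29 of 40 members. Leaving out KO replicate 3 lowered the medians to 0.55 for S phase and 0.97 for mitosis genes, with all 40 fold changes still above 0 and 0 members called. Leaving out both libraries numbered 3 gave medians of 0.65 and 1.21.

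Markers of other blood cells moved in the same splenic libraries. The 15 erythroid markers, globins, heme enzymes and surface proteins of red cell precursors, summed to 17255, 17484 and 28587 CPM in KO and 7864, 5980 and 22851 CPM in WT. None of the 15 was called by edgeR, all 15 had fold changes above 0, and none was at 0 in a library. In the other cell types together the same sum was at most 264 CPM. KO replicate 3 was the highest KO library and WT replicate 3 the highest WT library in this sum and in the mitosis sum. WT replicate 3 held more erythroid transcript than KO replicates 1 and 2, and less mitotic transcript.

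Neutrophil markers summed to 628.3, 741.2 and 840.6 CPM in KO and 229.3, 165.5 and 248.3 CPM in WT splenic libraries, and 4 of 10 (S100a8, S100a9, Ltf and Ngp, which encode granule and antimicrobial proteins) rose by edgeR, with the surface marker Ly6g at 0 in WT replicates 1 and 2. B cell markers summed to 304.8, 320.4 and 391.4 CPM in KO and 2228, 1654 and 1766 CPM in WT. Of these 14 genes 13 fell, and Pax5 and Vpreb3 were at 0 in all 3 KO libraries. Blood progenitor markers summed to 80.0, 141.6 and 107.1 CPM in KO and 109.7, 51.7 and 44.4 CPM in WT. Of these, 0 of 11 were called, and all 11 had fold changes above 0 (median log2 1.33). T and NK cell markers summed to 216.6, 215.0 and 154.6 CPM in KO and 192.6, 102.6 and 105.8 CPM in WT. All 12 had fold changes above 0 (median log2 0.50), and 1 was called. Single genes called in other lists were the T cell gene Cd8a and the dendritic cell gene Xcr1, which rose, and the monocyte gene Ms4a4c, which fell. The dendritic cell and monocyte sums did not follow these genes. Dendritic cell markers summed to 149, 248 and 168 CPM in KO and 395, 240 and 283 CPM in WT, with 6 of 9 fold changes above 0. Monocyte markers summed to 8150.6, 7475.2 and 6532.5 CPM in KO and 5961.5, 6225.3 and 5994.0 CPM in WT, with 7 of 14 above 0. The part of these cells in the splenic result was not tested.

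**Figure D4:**
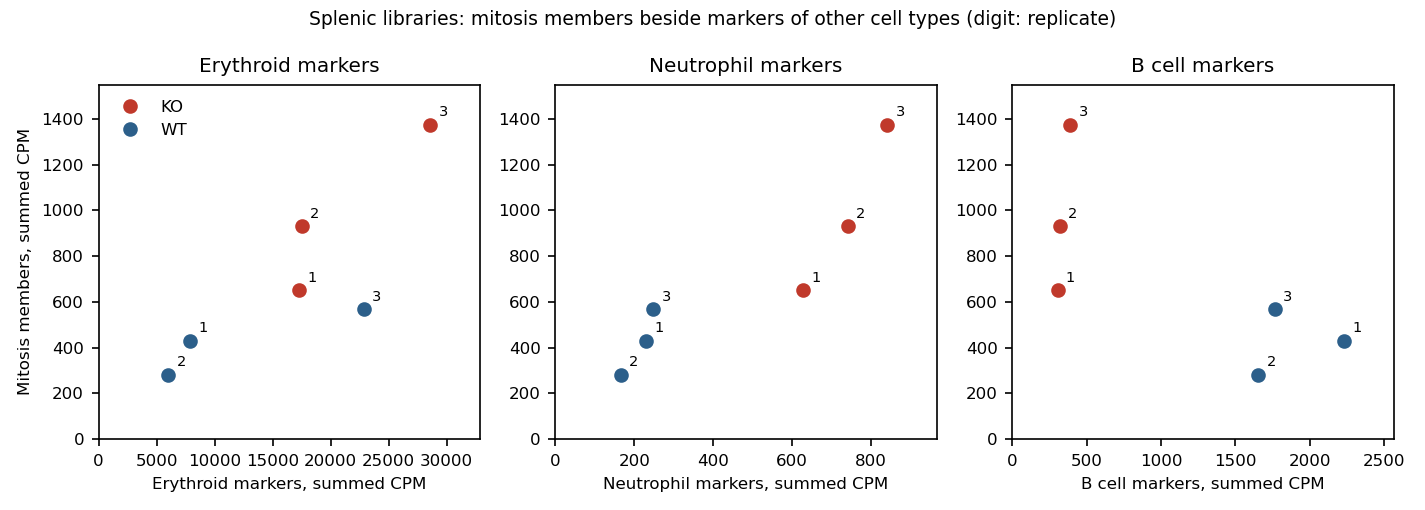
Summed CPM of the 24 mitosis genes (vertical axis) against summed CPM of erythroid, neutrophil and B cell markers (horizontal axes) in the 3 KO and 3 WT splenic libraries, numbered by replicate. KO libraries lie to the right for neutrophil markers and to the left for B cell markers, while WT replicate 3, at 22851 CPM of erythroid markers, lies between KO libraries in the erythroid panel.

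In alveolar macrophages, the cells with the most cell cycle transcript in WT, the genotypes overlapped for most members. Mitosis genes summed to 747.6, 966.2 and 1133 CPM in KO and 732.4, 887.3 and 1017 CPM in WT, and S phase genes to 990.8, 1398 and 1358 CPM in KO and 946.7, 1176 and 1280 CPM in WT. EdgeR called 55 of 17369 genes (0.317%) and 0 members, with 1 S phase and 3 mitosis genes at an unadjusted p under 0.05. These 4 of 40 are near the share of all genes at that threshold, 12.5%. DESeq2 called 922 genes (5.31%), 417 of them higher in KO (2.4%), and the members Cdc45 and Foxm1 (adjusted p = 0.0334 for both). The medians were 0.13 for S phase and 0.21 for mitosis genes, beside −0.02 for all genes. KO lay above WT without overlap for Cdc45, Tpx2, Kif23, Ube2c and Foxm1, 5 of 40 against 7.61% of all genes tested, and below WT for 0 against 11.8%.

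Cdc45, the helicase cofactor that joins MCM at firing origins, read 23.8, 22.2 and 25.5 CPM in KO and 17.2, 17.3 and 17.8 CPM in WT alveolar macrophages, tight within each group (log2 0.48 ± 0.15, SE; edgeR adjusted p = 0.24). Foxm1 read 39.8, 39.1 and 30.5 CPM in KO and 22.0, 24.4 and 26.5 CPM in WT (log2 0.61 ± 0.17, SE; edgeR adjusted p = 0.214). Kif23 read 85.7, 93.4 and 110.0 CPM in KO and 59.4, 67.5 and 84.1 CPM in WT (log2 0.48 ± 0.15, SE; edgeR adjusted p = 0.27). For these 3 genes all KO libraries exceeded all WT libraries, by less than 2 CPM in the case of Kif23. Other abundant mitotic genes overlapped. Mki67 read 36.3, 78.3 and 76.8 CPM in KO and 66.1, 66.6 and 83.1 CPM in WT. Top2a read 58.98, 92.4 and 124.4 CPM in KO and 82.9, 100.7 and 110.5 CPM in WT. The spindle checkpoint kinase Bub1b read 58.4, 87.2 and 100.2 CPM in KO and 83.2, 102.5 and 107.3 CPM in WT. In each of them KO replicate 1 was the lowest of the 6 libraries.

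The MCM genes with the highest levels and the clamp overlapped in alveolar macrophages. Mcm6 read 124.1, 182.2 and 205.3 CPM in KO and 122.4, 166.3 and 186.1 CPM in WT. Mcm3 read 120.3, 166.1 and 154.5 CPM in KO and 130.3, 152.1 and 127.2 CPM in WT, and Mcm4 90.9, 110.7 and 136.3 CPM in KO and 103.3, 121.6 and 118.9 CPM in WT. Mcm5 had the smallest unadjusted p of these, at 69.4, 120.5 and 118.0 CPM in KO and 71.2, 77.2 and 86.6 CPM in WT (log2 0.41; edgeR adjusted p = 0.485), where KO replicate 1 lay below WT. Pcna read 100.9, 125.5 and 114.9 CPM in KO and 101.0, 103.5 and 119.1 CPM in WT (95% interval of the log2 fold change −0.17 to 0.38). Neutrophil markers differed in these libraries, at 566.3 to 730.0 CPM in KO and 217.9 to 398.0 CPM in WT, and B cell markers summed to 7.95 to 14.7 CPM in KO and 88.7 to 179.7 CPM in WT. Their part in the alveolar values was not tested.

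Microglia gave almost no mitotic signal to compare. EdgeR called 0 of 17880 genes (0.0%) and 0 of 38 members tested, with only Cdc45 at an unadjusted p under 0.05 against 4.44% of all genes, and DESeq2 called 93 genes (0.52%) and 0 members. Cdc6 and Ccne1 did not pass the filter on low counts. Cdc45 read 1.18, 3.28 and 3.79 CPM in KO and 0.559, 0.306 and 1.26 CPM in WT, and the groups overlapped by a small margin (log2 1.96 ± 0.67, SE; edgeR adjusted p = 0.987). Mki67 read 0.182, 0.217 and 0.595 CPM in KO and 1.88, 2.43 and 0 CPM in WT. Ube2c, the ubiquitin-conjugating enzyme of the anaphase promoting complex, was the member that kept the genotypes apart, at 0.345, 0.253 and 0.714 CPM in KO and 0.0186, 0.229 and 0.118 CPM in WT, 1 of 38 tested against 5.58% of all genes, with 0 below WT against 5.45%. At these levels the intervals are wide, from −5.34 to 1.13 on the log2 scale for Mki67. The abundant S phase genes were better measured. Pcna read 58.4, 49.7 and 49.5 CPM in KO and 42.4, 66.3 and 57.0 CPM in WT, and Mcm3 62.3, 66.8 and 71.3 CPM in KO and 82.6, 57.99 and 61.5 CPM in WT. The reductase subunit Rrm1 read 27.7, 30.9 and 35.96 CPM in KO and 16.7, 29.6 and 29.98 CPM in WT, and Mcm6 16.4, 26.6 and 26.1 CPM in KO and 18.9, 12.9 and 17.8 CPM in WT. All 4 overlapped. The mitotic genes with the highest microglial means, Foxm1, Cdk1 and Bub1b, also overlapped. Foxm1 read 3.20, 2.50 and 1.33 CPM in KO and 5.33, 0.917 and 4.87 CPM in WT. Cdk1, the mitotic kinase, read 2.63, 1.68 and 4.30 CPM in KO and 1.79, 2.75 and 4.83 CPM in WT, and Bub1b 1.74, 2.86 and 3.15 CPM in KO and 1.42, 2.12 and 2.49 CPM in WT. Top2a and Cenpe were at 0 in single libraries. Top2a read 0.818, 0.253 and 1.35 CPM in KO and 0, 1.78 and 0.316 CPM in WT, and Cenpe 0.5995, 0 and 0.337 CPM in KO and 0.708, 3.36 and 0.296 CPM in WT.

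**Figure D5:**
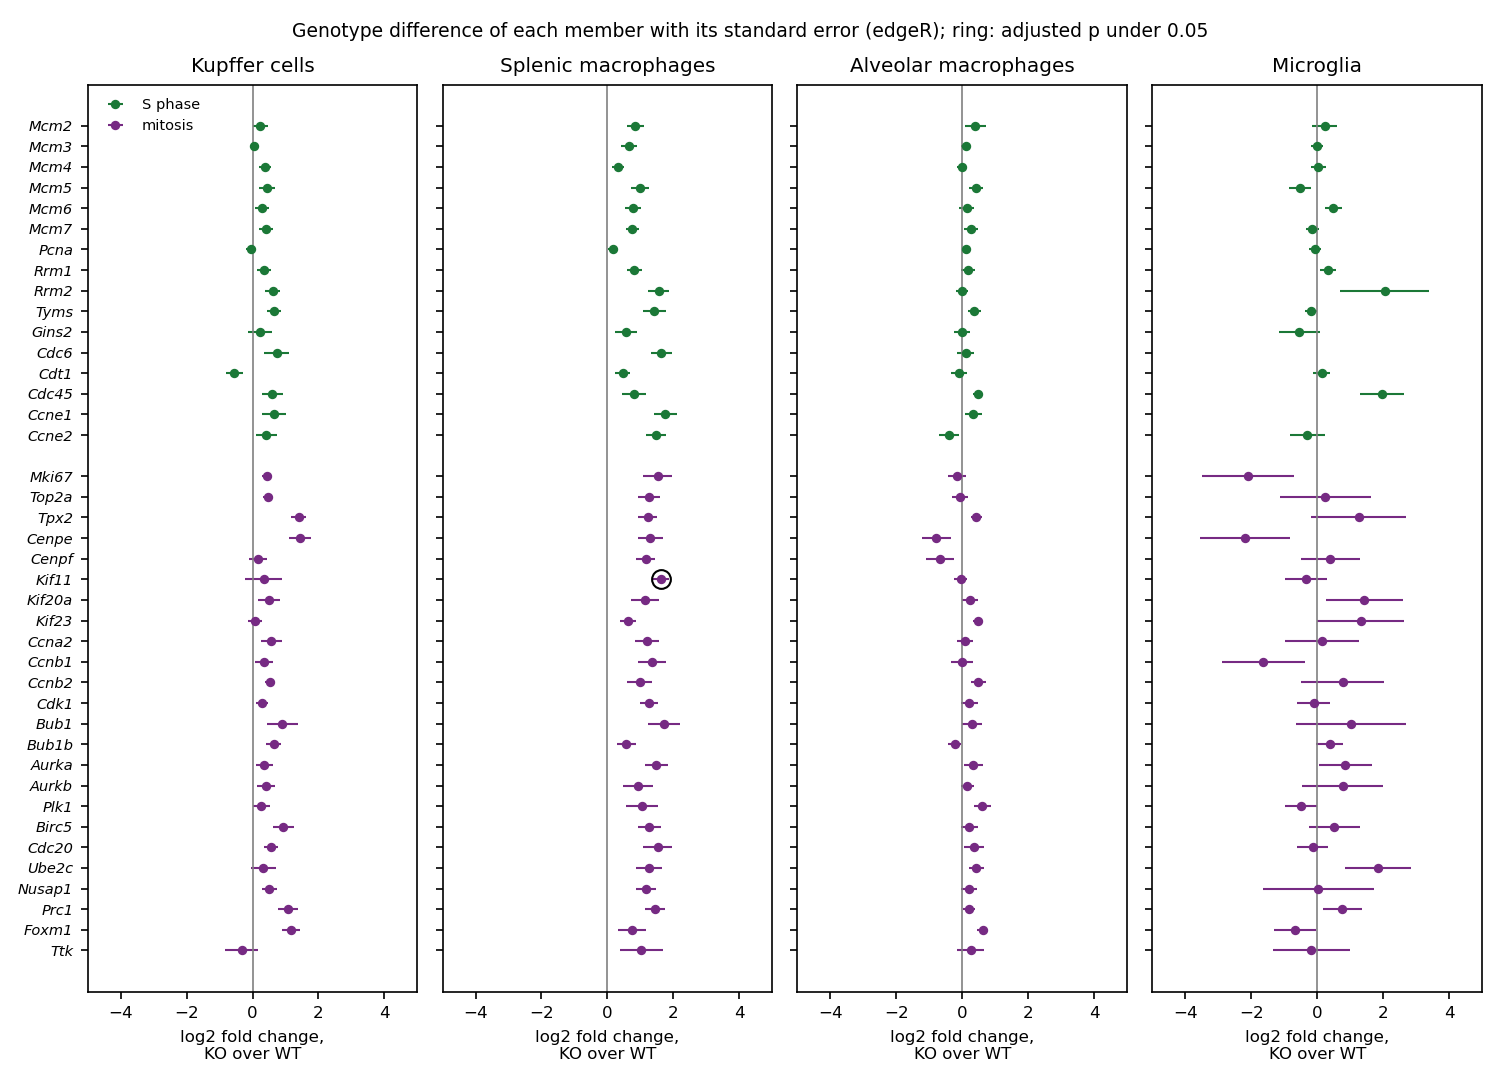
Log2 fold change of KO over WT (horizontal axis) with its standard error for each member (rows) in the 4 cell types, from edgeR, with S phase genes above mitosis genes and a ring at an adjusted p under 0.05. All points lie right of 0 in splenic macrophages, where Kif11 carries the ring, and the microglial bars are long for mitosis genes.

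Whether the genotype effect differed between cell types was asked in 1 model over the 24 libraries. The interaction was called for 126 of 24030 genes (0.524%) and for 0 of 40 members by edgeR, with 3 S phase and 4 mitosis genes at an unadjusted p under 0.05, 7 of 40 against 11.6% of all genes. DESeq2 called 957 genes (3.98%) and the members Tyms, Ccne2 and Cenpe. The Kupffer effect minus the splenic effect had medians of −0.57 for S phase and −0.71 for mitosis genes. EdgeR called 5 genes (0.0208%) and 0 members for it, with Cdt1 and Kif11 at an unadjusted p under 0.05 against 7.94% of all genes, and DESeq2 called 172 genes (0.716%) and 0 members. For Kif11 the difference was −1.28 with a 95% interval from −2.48 to −0.08. A difference between liver and spleen was thus not shown for any member over all genes tested.

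Averaged over the 4 cell types, edgeR called 150 genes (0.624%), 37 of them higher in KO (0.154%), and 1 member. This was Prc1 (chromosome 7, 80294450 to 80316259), which rose with a mean log2 fold change of 0.88 ± 0.18 (SE; edgeR adjusted p = 0.0231). Its KO mean was above its WT mean in all 4 cell types, at 18.7 and 8.96 CPM in Kupffer cells, 45.9 and 17.3 in splenic macrophages, 42.6 and 37.5 in alveolar macrophages and 1.32 and 0.783 in microglia. The genotypes were apart in Kupffer and splenic libraries and overlapped in the other cell types. Prc1 read 38.1, 37.1 and 52.6 CPM in KO and 32.6, 37.7 and 42.3 CPM in WT alveolar macrophages. In microglia it read 1.18, 1.09 and 1.68 CPM in KO and 0.336, 1.22 and 0.789 CPM in WT. The call was lost without the libraries of any 1 replicate number. Without the filter edgeR called 186 genes (0.431%), 44 of them higher in KO (0.102%), and among these Prc1 and Cdc45. DESeq2 called 634 genes (2.64%), 213 of them higher in KO (0.886%), and 7 members, namely Prc1, Cdc45, Rrm1, Rrm2, Tyms, Ube2c and Birc5.

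Other cell cycle genes gave a like picture. Of 48 further mitosis genes tested in splenic macrophages, 47 had fold changes above 0 (median 0.98), and 1 was called by edgeR. This was Cdca5, the cohesion factor sororin, which rose to 9.53, 13.7 and 14.3 CPM in KO libraries, against 4.74, 4.69 and 4.37 CPM in WT libraries (log2 1.48 ± 0.23, SE; edgeR adjusted p = 0.0459). Of 40 further replication genes 38 were above 0 (median 0.60; 0 called), and of 20 genes of E2F, RB and DREAM factors 18 (median 0.48; 0 called). G1 cyclins and kinases, which act upstream, had 7 of 11 above 0 (median 0.11), and CDK inhibitors and p53 targets, which hold the cycle back, 10 of 14 (median 0.45), with 0 called in both.

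In Kupffer cells the same lists had 42 of 49 mitosis genes (median 0.37), 32 of 40 replication genes (0.21), 13 of 21 E2F, RB and DREAM factors (0.16), 6 of 11 G1 genes (0.01) and 5 of 14 inhibitors (−0.20) above 0, and none was called. Alveolar macrophages had medians of 0.17, 0.04, −0.01, 0.04 and −0.29 in the same order, and microglia 0.09, −0.09, 0.18, 0.16 and −0.25, again with 0 called. Among regulators of macrophage growth, Myc fell in alveolar macrophages to 88.5, 90.9 and 118.1 CPM in KO, against 237.8, 201.7 and 209.6 CPM in WT (log2 −1.10 ± 0.13, SE; edgeR adjusted p = 0.0263). It was the single gene of that list called in any cell type.

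Among WT libraries alone, the level of nearly every member differed between cell types. The part of other cells in these bulk libraries was not tested. An F test over the 12 WT libraries called 11331 of 21679 genes (52.3%), all 16 S phase genes and 23 of 24 mitosis genes. DESeq2 called 58.9% of genes. Alveolar macrophages had the highest mean for 39 of 40 members, and microglia the lowest for 38. The anaphase enzyme Ube2c was the exception at the top, at 21.3 ± 10.3 CPM in splenic and 17.4 ± 4.23 CPM in alveolar macrophages, and Mcm3 and Tyms were lowest in splenic macrophages. The order alveolar, splenic, Kupffer, microglia held for 25 members, and alveolar, Kupffer, splenic, microglia for 12. The kinase Ttk was not called (edgeR adjusted p = 0.0837), at 4.18 ± 2.76, 2.58 ± 1.66, 4.38 ± 1.5045 and 0.508 ± 0.601 CPM in Kupffer cells, splenic macrophages, alveolar macrophages and microglia.

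Neighbours in this order often did not differ beyond their spread. WT Kupffer and WT splenic libraries differed for 3 members by edgeR (16.4% of all genes): Mcm3 was higher in Kupffer cells (log2 0.67, adjusted p = 0.0228), and Rrm2 (−1.88, 0.0314) and Birc5 (−1.56, 0.0453) were lower. The fit without replicate 1 called only Rrm2 of the 40, that without replicate 2 only Birc5, and that without replicate 3 called 0. DESeq2 called 22.1% of genes there and 5 members, adding Ube2c and Prc1. WT Kupffer cells were lower than WT alveolar macrophages for 10 S phase and 8 mitosis genes (12.4% of all genes were lower), and WT splenic macrophages for 7 and 3 (12.8%). Against microglia, 14 S phase and 22 mitosis genes were higher in Kupffer cells (18.3% of all genes), 13 and 22 in splenic macrophages (18.6%) and all 40 in alveolar macrophages (20.4%). The median log2 difference between alveolar macrophages and microglia was 2.70 for S phase and 5.57 for mitosis genes.

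By the ratio of the highest to the lowest mean, the widest ranges belonged to Rrm2, Ccne1 and Cdc6 in S phase and to Kif23, Ube2c and Top2a in mitosis. Microglia were lowest for all 6, and single microglial libraries decide these ratios, which are therefore not given. Rrm2 averaged 22.3 ± 6.01 CPM in WT Kupffer cells, 71.0 ± 16.5 in splenic macrophages and 94.2 ± 19.3 in alveolar macrophages, and read 0, 0.573 and 0.513 CPM in WT microglia (edgeR adjusted p = 2.11e-05). Top2a averaged 33.4 ± 1.44, 38.5 ± 8.03 and 98.1 ± 14.037 CPM in the same 3 cell types and read 0, 1.78 and 0.316 CPM in WT microglia. Kif23 averaged 48.0 ± 8.44, 32.7 ± 7.38 and 70.3 ± 12.6 CPM, and read 0.746, 0 and 0.276 CPM in WT microglia. Even the highest microglial library was far below the other cell types for these 3 genes. Cdc6 averaged 6.18 ± 2.70, 9.28 ± 3.15 and 13.1 ± 3.64 CPM and read 0.857, 0.0764 and 0.0394 CPM in WT microglia, where replicate 1 stood apart. Bub1b averaged 18.6 ± 3.07 CPM in Kupffer cells, 14.1 ± 3.27 in splenic macrophages, 97.7 ± 12.8 in alveolar macrophages and 2.01 ± 0.543 in microglia (edgeR adjusted p = 2.1e-07). Pcna and Mcm3 had the narrowest ranges, 1.95-fold and 2.26-fold. Per length, Pcna had the highest mean TPM of the 40 in all 4 WT groups, at 96.0 ± 1.94 TPM in Kupffer cells, where Mcm3 came close at 93.2 ± 7.01 TPM (SD, n = 3 each), 105.6 in splenic macrophages, 140.6 in alveolar macrophages and 71.5 in microglia.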

How the data were processed

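The authors deposited gene counts, depth-scaled counts (CPM) and length-scaled transcript levels (TPM) for 24 libraries in a table of the whole series. Build mm10 and the tools DRAGEN, STAR, Subread, featureCounts and Salmon are named in the submitters' processing notes. Their roles, and the handling of strand, overlapping genes and pseudogene copies, are not given in the sources used here. Counts as deposited held only whole numbers, and the deposited CPM differed from CPM recomputed from them by at most 4.73e-11. The deposited TPM were used only to set levels of genes side by side; 4 splenic columns of them were handled as a score, as deposited by the authors, since repeated rows raised their sum above that of a TPM column. After 287 repeated rows were dropped, 55487 genes remained, and 0 value columns were left unmapped. Groups and replicate numbers came from the labels. No replicates agreed within sampling noise (smallest chi-square per degree of freedom 29.4).

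KO was compared with WT in the 6 libraries of each cell type by edgeR (version 4.0.16, R 4.3.3) with its quasi-likelihood test, TMM scaling and filterByExpr (minimum count 10), at a Benjamini-Hochberg adjusted p under 0.05 over all genes tested. The interaction, the contrast of Kupffer with splenic effects and the mean effect came from a single fit of 24 libraries, and cell types from the 12 WT libraries. DESeq2 1.42.0 was an alternative, as were DESeq2 size factors, no filter, the replicate number as a block, and leaving out each replicate. The scripts were tested on simulated data. Coordinates are from GENCODE M21 (GRCm38). Fold changes set KO over WT, or the cell type named first over the other. With 3 against 3 libraries an exact permutation test cannot go below 0.1 and was not used.

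The members and gene lists were chosen with earlier results of these data known. Genes are named where called, where they had the 3 highest mean CPM or the 2 smallest p-values of their phase in a cell type, where they are the markers Mki67, Top2a, Pcna and Mcm6, or, between WT cell types, where they had the 3 largest ranges of their phase or were not called; others named were chosen after their values were seen.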

Additional observations from a re-analysis of the deposited data

How the results depend on the processing

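Among the alternatives, DESeq2 called 5 members in Kupffer cells, 26 in splenic macrophages, 2 in alveolar macrophages, 7 for the mean effect, 3 for the interaction and 5 between WT Kupffer and WT splenic libraries. In splenic macrophages the fit without a filter called 9, the replicate block 0, the fits without 1 library 0 to 1, and the fit without both libraries numbered 3, chosen after seeing the data, 0. For the mean effect DESeq2 size factors gave 2, no filter 2, the replicate block 4, and leaving out a replicate number 0 to 2. Leaving out a replicate number gave 0 to 1 members for the interaction, 0 to 1 for WT Kupffer against splenic, 5 to 14 for WT Kupffer against alveolar and 4 to 8 for WT splenic against alveolar. Some directions turned. With 1 library left out, the log2 fold change ran from −0.029 to 0.13 (Mcm3), −0.052 to 0.23 (Kif23) and −0.19 to 0.031 (Pcna) in Kupffer cells, and from −0.035 to 0.30 (Mcm6), −0.14 to 0.11 (Mcm4), −0.33 to 0.15 (Top2a) and −0.33 to 0.12 (Mki67) in alveolar macrophages. In microglia it ran from −0.13 to 0.19 (Mcm3; 0.0086 with the replicate block), −0.20 to 0.067 (Pcna), −0.53 to 0.36 (Cdk1) and −0.35 to 2.35 (Top2a). The F test between WT cell types called 33 to 37 members without 1 replicate number, against 39 with all, and against WT microglia the same settings called 27 to 31 in Kupffer cells, 30 to 32 in splenic macrophages and 37 to 39 in alveolar macrophages. Among the genes named for that test, Cdc6 was not called without replicate 3 (adjusted p = 0.0629), and Ttk was called without replicate 2 (0.0418) and by DESeq2 (0.0255). The cause was not tested. Same-numbered libraries did not deviate together (r from −0.04 to 0.073), so the numbers were not taken as pairs. With the replicate block Kif11 was not called in splenic macrophages (adjusted p = 0.134), and WT Kupffer against splenic gave 2 members, Mcm3 and Ube2c. At the depth of the microglial libraries many members held few reads, and a count of a few reads limits what can be compared there.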
